A study of Mus musculus with 4 samples.

Results

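The genes described here are 34 Toll-like receptors, other microbial sensors, their accessory proteins and the adaptors, kinases and transcription factors that carry their signals. They were chosen by symbol from a fixed list, and all 34 were found among the 55450 gene rows of each library. The RNA came from CD11c+ cells that were enriched with magnetic beads from mesenteric lymph nodes of wild-type C57BL/6J mice, with 2 nodes pooled per sample. Per the labels' protocols, every pool filled 2 wells, of which the control received water and the other an Ffar2 agonist at 10 µM, and both were kept for 6 h in medium with serum. Ffar2 is a receptor for short-chain fatty acids, and which compound served as agonist is not given in the sources used here. There were 2 control and 2 agonist libraries, and the numbers 2 and 3 in their titles mark the pools.

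Toll-like receptors are transmembrane proteins that bind conserved microbial molecules. Those at the cell surface mostly bind lipids and proteins of the microbial envelope, and those in endosomes bind nucleic acids or, in the mouse, some protozoan and bacterial products. Most signal through the adaptor MyD88, IRAK kinases and the ubiquitin ligase TRAF6 to the kinase TAK1 and NF-kB, while TLR3 and internalised TLR4 use the adaptor TRIF to reach the kinase TBK1 and the factor IRF3. In dendritic cells these receptors control maturation and cytokine output, and each dendritic cell subset is known for its own set of receptors.

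Reads assigned to genes numbered 43238375 to 59902172 per library. Xist reads were present in both libraries of pool 2 and at 0 in both of pool 3, and reads of the Y-linked gene Ddx3y showed the reverse, so a difference between the pools cannot be told apart from one between sexes. Dendritic cell markers were abundant, with Itgax, which encodes CD11c, at 95.5 to 189 CPM and Flt3 at 147 to 310 CPM (CPM, the count relative to the library's total after scaling by trimmed mean of M-values). The receptor of the agonist, Ffar2, was read at 1.71 to 4.04 CPM. Markers of other cells were present too. The summed level was 375 to 823 CPM for 10 B cell markers, 341 to 820 CPM for 10 T cell markers, 530 to 942 CPM for 7 plasmacytoid dendritic cell markers and 3229 to 5800 CPM for 13 monocyte and macrophage markers. None of those 40 markers was at 0 in any library, whereas the neutrophil marker Ly6g was at 0 in all 4. In such bulk samples, fewer cells of a type and less RNA per cell cannot be told apart.

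Tlr1 and Tlr6 are neighbouring genes on chromosome 5 (GRCm38), at 64924679 to 64933563 and 64952031 to 64960097, both on the minus strand. They encode the partners with which TLR2 forms heterodimers. Their coding sequences are alike in places, which bears on how many of their reads could be counted, because reads that aligned to more than 1 place were not assigned to a gene. The longest run common to the longest protein-coding GENCODE M21 transcript of each gene was 229 bases. Shown here are windows of 300 bases around that run, within the coding sequence of each gene (chr5:64925501-64925800 for Tlr1 and chr5:64953792-64954091 for Tlr6), with the 2 bases that differ in capitals.
Tlr1: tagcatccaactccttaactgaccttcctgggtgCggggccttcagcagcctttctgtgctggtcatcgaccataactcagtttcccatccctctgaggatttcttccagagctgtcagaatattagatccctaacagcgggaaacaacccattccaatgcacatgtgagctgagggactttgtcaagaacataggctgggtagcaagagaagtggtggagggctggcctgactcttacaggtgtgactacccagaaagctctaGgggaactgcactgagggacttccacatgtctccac
Tlr6: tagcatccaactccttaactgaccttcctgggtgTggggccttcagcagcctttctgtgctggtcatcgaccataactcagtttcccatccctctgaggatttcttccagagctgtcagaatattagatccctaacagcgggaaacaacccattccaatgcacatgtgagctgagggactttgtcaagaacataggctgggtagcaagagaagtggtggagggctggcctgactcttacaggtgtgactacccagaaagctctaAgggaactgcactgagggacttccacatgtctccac
Of all stretches of 50 bases in the Tlr1 transcripts, 13.6% also stood in Tlr6 transcripts, and 12.3% of those of Tlr6 stood in Tlr1. The levels of both may therefore be too low, and how many reads were lost in this way was not measured. The other 10 Toll-like receptors shared no such stretch with another gene, except Tlr3 (5.30%, shared with Gm45542) and Tlr4 (0.216%). Exons of 10 of the 34 genes overlapped another annotated gene. The largest shares were 14.5% for Ticam2, which overlaps Tmed7, and 14.1% for Irf5, which overlaps the opposite-strand gene Tnpo3. Since the library kit keeps no strand information, reads in such overlaps cannot be assigned to 1 gene.

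All 34 genes had at least 10 reads in every library and passed the filter on low counts. To compare genes with each other, levels were expressed as TPM, which divides the count by exon length and scales to the sum over all genes, with mean ± SD over the 4 libraries. Among the receptors, Tlr1 was the most abundant, at 168 and 148 TPM in the control wells of pools 2 and 3 and at 163 and 156 TPM in the agonist wells (159 ± 8.71 TPM, n = 4). It made up 43.6% to 54.1% of the summed TPM of the 12 Toll-like receptors. Tlr13, the mouse sensor of bacterial ribosomal RNA, followed with 64.5 and 92.6 TPM in the control and 60.9 and 103 TPM in the agonist wells (80.2 ± 20.7 TPM, n = 4). The lowest Tlr1 value lay above the highest Tlr13 value.

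Below these, 4 receptors had mean levels from 12.4 to 20.1 TPM, and the ranges of neighbours in that order overlapped. Tlr2, the receptor for bacterial lipoproteins, had 20.1 ± 6.82 TPM, Tlr12, a sensor of protozoan profilin, 17.2 ± 3.00 TPM, Tlr7, a sensor of single-stranded RNA, 16.8 ± 4.54 TPM, and Tlr6 12.4 ± 0.805 TPM (SD, n = 4). Tlr11, which also recognises profilin, stood at 9.61 ± 4.80 TPM (SD, n = 4). Receptors often studied in dendritic cells and macrophages were read at low levels here. Tlr4, the lipopolysaccharide receptor, had 4.61 ± 1.27 TPM, Tlr9, a sensor of CpG DNA, 3.22 ± 0.60 TPM and Tlr5, the flagellin receptor, 2.89 ± 1.14 TPM (SD, n = 4). Tlr8 (1.09 ± 0.566 TPM) and Tlr3, the sensor of double-stranded RNA (0.892 ± 0.339 TPM), were the lowest of all 34 genes. Tlr3 rested on 37 to 95 reads per library and Tlr8 on 29 to 109.

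The accessory genes Unc93b1, Ly96 and Ly86 had higher mean levels than every receptor except Tlr1, which only Unc93b1 exceeded. Unc93b1, the chaperone that carries nucleic acid sensors to endosomes, had 692 and 601 TPM in the control and 651 and 633 TPM in the agonist wells (644 ± 38.2 TPM, n = 4). Ly96, which encodes the MD-2 subunit of the lipopolysaccharide receptor, had 136 ± 16.3 TPM and its lowest library (114 TPM) lay above the highest Tlr4 library (5.88 TPM). Ly86, which encodes MD-1, the partner of the TLR4-like protein RP105, had 109 ± 13.4 TPM. Cd14, the lipopolysaccharide co-receptor, had 23.6 ± 6.14 TPM.

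Among the 4 adaptors, Myd88 (74.0 ± 5.14 TPM) and Ticam1, which encodes TRIF (46.0 ± 14.9 TPM), stood above Ticam2, the bridging adaptor TRAM (20.6 ± 1.47 TPM), and Tirap, the bridging adaptor MAL (7.33 ± 1.59 TPM; SD, n = 4). The ranges of Myd88 and Ticam1 lay above those of Ticam2 and Tirap without overlap. Kinases ranged from Tbk1 at 196 ± 7.63 TPM to Irak3 at 2.36 ± 0.669 TPM. Irak3 encodes IRAK-M, an inhibitory member of the IRAK family. Irak2, which sustains MyD88 signals, had 114 ± 54.4 TPM, the widest SD relative to its mean among genes above 20 TPM. Irak4, the first kinase bound by MyD88, had 63.7 ± 11.2 TPM, Irak1 23.9 ± 4.06 TPM, Traf6 54.1 ± 20.5 TPM and Map3k7, which encodes TAK1, 7.0 ± 2.08 TPM.

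In the cytosol, Tmem173, which encodes STING, the adaptor for cyclic dinucleotides, had 141 ± 38.3 TPM, and Mavs, the adaptor of RNA helicases, had 42.5 ± 5.65 TPM. Sensors of bacterial cell wall fragments were lower, with Nod1 at 4.35 ± 2.79 TPM and Nod2 at 2.85 ± 0.981 TPM. Their shared kinase Ripk2 had 10.5 ± 3.79 TPM. Irf5, a transcription factor activated by MyD88, was the most abundant gene of the set at 895 and 815 TPM in the control and 1039 and 974 TPM in the agonist wells (931 ± 97.0 TPM, n = 4). Irf3 had 86.6 ± 7.04 TPM. In the order of mean levels, the ranges of 28 of the 33 neighbouring pairs overlapped. The steps without overlap came after Irf5, Unc93b1, Tbk1, Ly86 and Mavs.

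**Figure D1:**
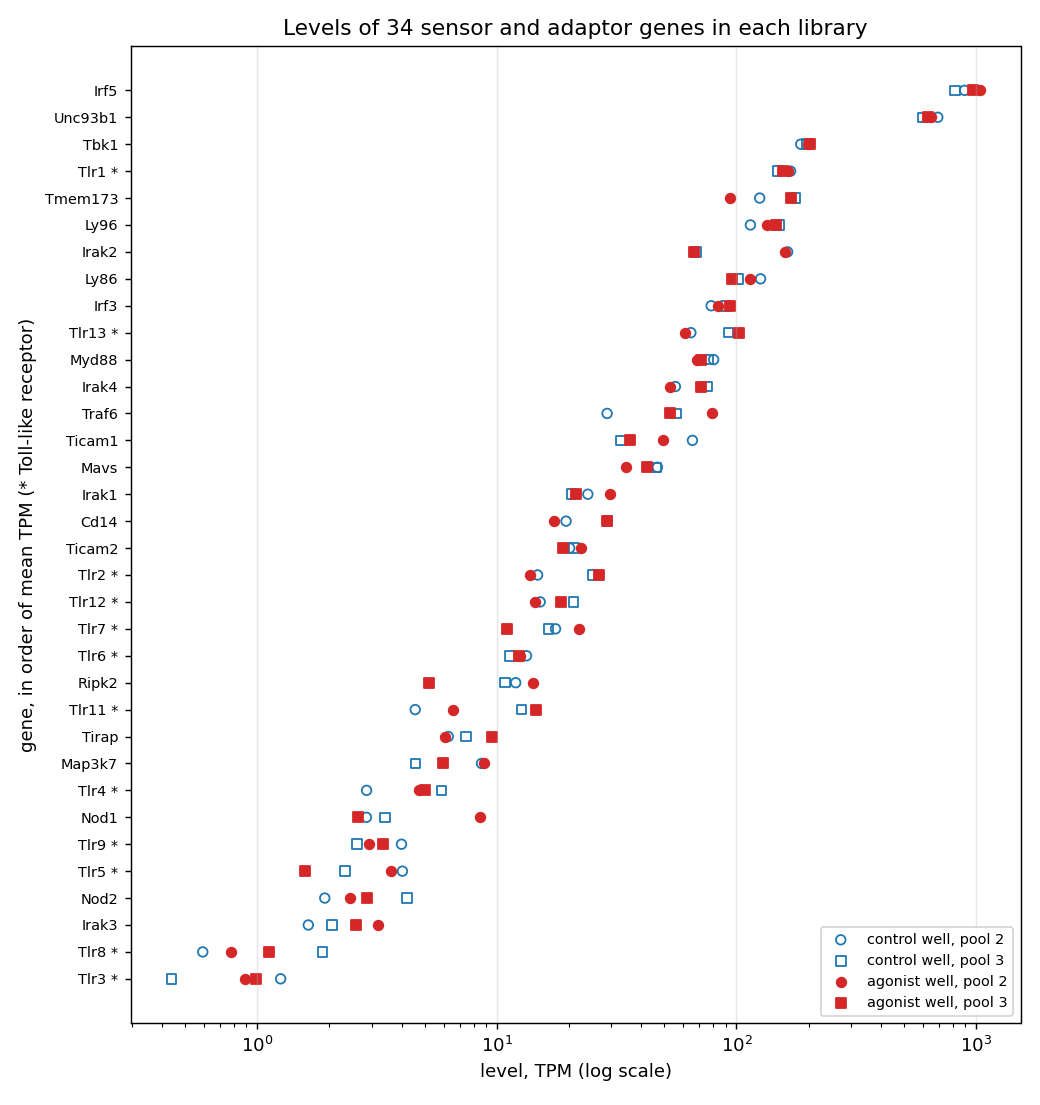
Level of each of the 34 genes in TPM (x axis, log scale) in the 4 libraries (open blue, control; filled red, agonist; circles, pool 2; squares, pool 3), with genes in order of their mean. Irf5 and Unc93b1 stand above 600 TPM in every library, Tlr1 is the highest receptor, and Irak2 and Tlr11 separate by pool.

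The main comparison asked what the agonist did to these genes within 6 h. No gene of the 34 passed the test. In edgeR's quasi-likelihood test 0 of 34 passed an adjusted p of 0.05, beside 0% of all 18297 tested genes, and 0 of 34 reached an unadjusted p of 0.05, beside 1.58% of all genes (0.639% higher, 0.94% lower). With the pool as a block the member counts were also 0 and 0, beside 0.00547% and 3.53% of all genes (1.69% higher, 1.84% lower). Other tools called 0 of 34 as well, beside 0.0383% of all genes in DESeq2, 0.0328% in DESeq2 with the block and 0% in limma-voom. At an unadjusted p of 0.05 the member counts were 0 in DESeq2 and limma-voom (2.14% and 1.26% of all genes) and 1, Traf6, in DESeq2 with the block (4.23% of all genes). The members had a median log2 fold change of -0.02, against -0.05 for all tested genes. The p-values measure the spread between these 4 libraries. Every member's 95% interval included 0, and for 13 of the 34 the interval lay between -1 and 1, so for the other 21 a change of 2-fold in at least 1 direction was within the interval. With the pool as a block, 23 of the 34 intervals lay between -1 and 1.

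The best-measured receptor, Tlr1, had 177 and 154 CPM in the control wells of pools 2 and 3 and 159 and 170 CPM in the agonist wells. This gave a log2 fold change of -0.01 with an SE of 0.26 and a 95% interval from -0.63 to 0.61. The agonist values lay between the control values. Unc93b1 gave -0.03 (SE 0.25, 95% interval -0.63 to 0.57), Tbk1 0.05 (SE 0.25, -0.56 to 0.66) and Ticam2 -0.02 (SE 0.27, -0.69 to 0.64). For Tlr3 and Tlr8, whose reads were few, the intervals were wide, from -1.55 to 1.82 and from -2.22 to 1.45.

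Nod1 had the largest positive value of the set. It was read at 4.55 and 5.38 CPM in the control wells of pools 2 and 3 and at 12.5 and 4.34 CPM in the agonist wells. The agonist well of pool 2 was high and the other 3 libraries were alike, so the groups overlapped. The log2 fold change of 0.76 had an SE of 0.57 (edgeR, unadjusted p = 0.225, adjusted p = 0.9999), and without agonist replicate 2 it was -0.16.

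Traf6 had 71.4 and 137 CPM in the control wells of pools 2 and 3 and 181 and 136 CPM in the agonist wells. The control well of pool 2 was the lowest library and the agonist well of pool 2 the highest, while both wells of pool 3 lay between them. In edgeR this gave a log2 fold change of 0.61 (SE 0.38, unadjusted p = 0.162), and 0.67 with the pool as a block (SE 0.33, unadjusted p = 0.0774, edgeR adjusted p = 0.9998). It was 0.21 without control replicate 2 and 1.23 without control replicate 3. The same order, with control replicate 2 at the bottom and agonist replicate 2 at the top, was seen in 10.9% of all tested genes. It was seen in 52.2% of the genes that were higher by more than 1 log2 unit in the agonist well of pool 2. Choosing genes by that difference itself favours this order. Whether the Traf6 value has a part shared with those genes was not tested.

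Groups did not overlap for 4 of the 34 members (11.8%, beside 25% of all tested genes). Irak3 and Irf5 stood above the control, beside 11.4% of all genes, and Mavs and Myd88 below it, beside 13.5%. Irak3 had 1.88 and 2.34 CPM in the control and 3.39 and 3.10 CPM in the agonist wells, with a log2 fold change of 0.62 (SE 0.48, unadjusted p = 0.238) on 82 to 176 reads. Irf5 had 816 and 736 CPM in the control and 876 and 922 CPM in the agonist wells, with 0.21 (SE 0.24, unadjusted p = 0.406). Mavs had 49.1 and 48.1 CPM in the control and 33.5 and 46.3 CPM in the agonist wells, with -0.28 (SE 0.30, unadjusted p = 0.377), and Myd88 64.9 and 60.8 CPM against 51.4 and 59.7 CPM, with -0.18 (SE 0.27, unadjusted p = 0.53). Without agonist replicate 2 the value was -0.03 for Mavs and -0.04 for Myd88. Without agonist replicate 3 it was -0.54 and -0.30. None of these values exceeded the spread between libraries by the test, and the share of members with separate groups was below that of all genes.

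The other 2 of the 8 members with the lowest p-values were Tlr5, with a log2 fold change of -0.34 (SE 0.55, edgeR unadjusted p = 0.56), and Ticam1, with -0.24 (SE 0.40, unadjusted p = 0.567). Tlr5 was at 6.06 and 3.45 CPM in the control and 5.04 and 2.47 CPM in the agonist wells, lower in the agonist well of each pool but with overlapping groups. Ticam1 was at 61.5 and 30.6 CPM in the control and 43.0 and 35.0 CPM in the agonist wells, and both agonist values lay between the control values. The other 26 members had log2 fold changes from -0.38 to 0.31. Markers of T cells had lower values in the agonist well of both pools for 10 of 10 genes. The count was 8 of 10 for B cells, 5 of 7 for plasmacytoid dendritic cells and 4 of 6 for NK cells, beside 27.9% of all tested genes. Monocyte and macrophage markers were lower in both for 4 of 13 and higher in both for 2. Of 8 cDC1 markers 2 were lower and 3 higher, and of 6 cDC2 markers 2 and 1. Of 5 dendritic cell markers 1 was lower and 3 higher, of 6 migratory ones 0 and 3, and of 5 mast cell markers 0 and 2. Of all tested genes 21% were higher in both. The summed level of 5 plasma cell markers was 474 and 287 CPM in the control wells of pools 2 and 3 and 107 and 62.8 CPM in the agonist wells. Of these 5 markers, 2 were lower and 2 higher in the agonist well of both pools, and their median log2 fold change was 0.30. Most of the sum in the control wells was Igha, at 394 and 164 CPM in pools 2 and 3. Igha was at 50.04 and 16.8 CPM in the agonist wells of those pools. The part of these cell types in the values above was not tested.

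**Figure D2:**
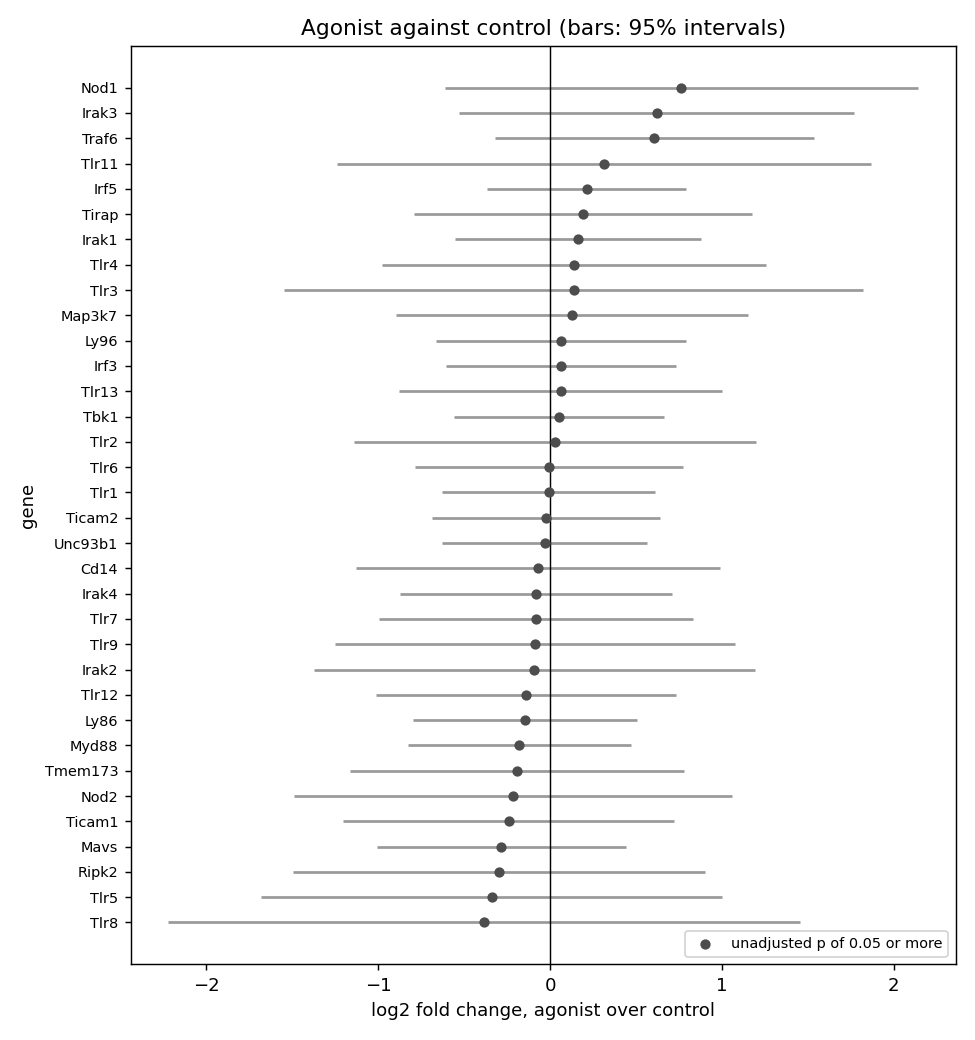
Log2 fold change of agonist over control for each of the 34 genes (points) with its 95% interval (bars) from edgeR's fit of all 4 libraries, in order of the value. Every interval crosses 0, and the widest belong to Tlr8 and Tlr3.

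Other genes of the same pathways were given from a list of 39, which holds further accessory proteins, ubiquitin ligases, kinases, RNA and DNA sensors and interferon regulatory factors. Of these 37 were tested, and 0 passed in either direction in the unblocked or the blocked fit. The gene for the lipopolysaccharide-binding protein, Lbp, had 0 reads in every library, and Sarm1 had 0 to 6. The median was 0.02. Those with the smallest p in the unblocked fit were all higher in value in the agonist wells. They were Peli3, a ubiquitin ligase for IRAKs with 3 to 53 reads (log2 fold change 2.30, SE 1.08), Rbck1 (0.88, SE 0.42) and Rnf31 (0.63, SE 0.37), subunits of the linear ubiquitin ligase, Irf8 (0.92, SE 0.48), a factor of dendritic cell development, and Cnpy3 (0.48, SE 0.27), a chaperone of Toll-like receptors. In pool 2 the difference was 1.73 for Rbck1, 1.25 for Rnf31 and 2.00 for Irf8, and in pool 3 it was 0.21, -0.03 and -0.09. With the pool as a block Rbck1 had an unadjusted p of 0.0248 and an edgeR adjusted p of 0.9998.

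Because the 2 wells of a pool were filled from the same cells, the difference of agonist minus control was also read within each pool, as log2 CPM with no test, since each pool had 1 well per arm. The direction was opposite in the pools for 23 of the 34 members (67.6%), beside 51.1% of all tested genes. It was higher in both for 5, namely Tlr11, Irak1, Irak3, Ly96 and Irf5, and lower in both for 6, namely Tlr5, Tlr12, Irak4, Ly86, Myd88 and Mavs, beside 21% and 27.9% of all genes. Signs alone were counted, also for values near 0 such as 0.0048 for Tmem173 in pool 3. The counts depended on the scaling, since with total counts only 6 members were higher and 9 lower in both pools. The median of the members was -0.15 in pool 2 and 0.05 in pool 3, against -0.09 and -0.0048 over all genes.

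The remaining members are given here by role, with CPM in the control and agonist well of pool 2 and then of pool 3. Among the surface receptors, Tlr4 was read at 4.98 and 7.62 and then at 10.1 and 9.04 CPM, and Tlr6 at 15.6 and 13.5 and then at 13.1 and 15.1 CPM. Among the endosomal ones, Tlr9 had 4.36 and 2.96 and then 2.81 and 3.79 CPM, and Tlr12 15.1 and 13.3 and then 20.6 and 19.1 CPM. The control well of pool 2 was low for Tlr4, and the wells of each pool were close for Tlr12. Tlr3 had 2.04 and 1.35 and then 0.708 and 1.67 CPM, and Tlr8 0.666 and 0.808 and then 2.09 and 1.30 CPM.

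Of the accessory genes, Ly96 had 36.6 and 39.6 and then 47.8 and 48.7 CPM, and Ly86 144 and 120 and then 115 and 114 CPM. Both separated by pool, with pool 3 above for Ly96 and below for Ly86, and the control well of pool 2 was the highest for Ly86. Among the adaptors, Ticam2 was the most even, with 36.6 and 37.5 and then 37.8 and 35.5 CPM. Tirap had 9.69 and 8.71 and then 11.4 and 15.3 CPM, with its highest value in the agonist well of pool 3. Among the kinases, Irak1 had 35.5 and 40.4 and then 30.04 and 32.9 CPM, higher in the agonist well of both pools. Irak4 had 87.6 and 77.0 and then 117 and 117 CPM, with pool 3 above pool 2. Map3k7 had 17.4 and 16.5 and then 9.13 and 12.4 CPM, with pool 3 below pool 2. Tbk1, which phosphorylates IRF3, had 228 and 225 and then 240 and 259 CPM, and Irf3 itself had 84.7 and 83.4 and then 96.4 and 106 CPM. Nod2 had 3.01 and 3.54 and then 6.55 and 4.69 CPM, with its highest value in the control well of pool 3.

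Of the 12 receptors, 9 had opposite directions in the pools. Tlr1, Tlr2, Tlr6 and Tlr13 had values of -0.22 to -0.16 in pool 2 and 0.14 to 0.22 in pool 3. Tlr7, with 22.5 and 26.2 CPM in the control and agonist wells of pool 2 and 20.8 and 14.7 CPM in those of pool 3, gave 0.22 and -0.50. Tlr9 gave -0.55 and 0.42, Tlr4 0.61 and -0.17, Tlr8 0.26 and -0.66, and Tlr3 -0.59 and 1.20. Tlr3 and Tlr8 had under 110 reads in each library. Tlr11 alone among the receptors was higher in the agonist well of both pools, by 0.41 and 0.27, and Tlr5 and Tlr12 were lower in both, by values of -0.27 and -0.47 and of -0.19 and -0.11.

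Among the NOD branch, Ripk2 had 10.6 and 11.5 CPM in the control and agonist wells of pool 2 and 9.46 and 4.80 CPM in those of pool 3. Its agonist well of pool 3 was the low library. The within-pool differences were 0.12 and -0.97, and the fit over both pools gave a log2 fold change of -0.30 (SE 0.49). Nod1 gave 1.46 and -0.31 and Nod2 0.23 and -0.48. The agonist well stood above the control well by more than 1 log2 unit for 2 members in pool 2 (5.88%), Nod1 and Traf6, beside 13.8% of all tested genes, and for 1 in pool 3 (2.94%), Tlr3, beside 5.67%. A test of whether the pools differ in their response was not possible with 1 well per pool and condition.

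**Figure D3:**
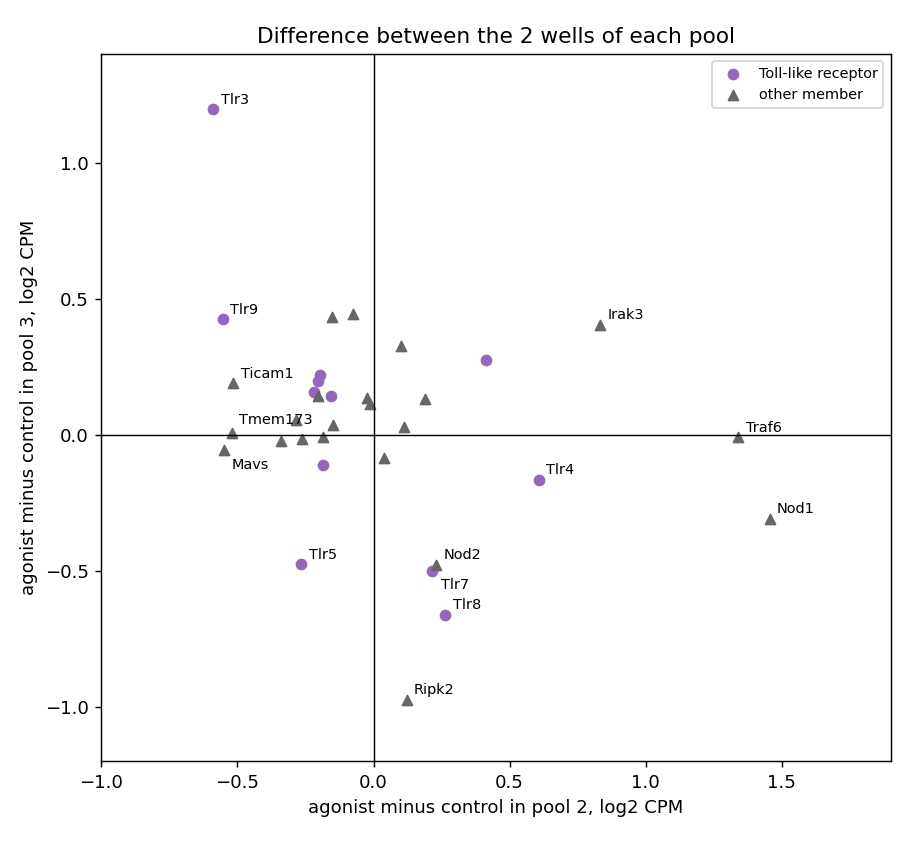
Difference of agonist minus control in log2 CPM within pool 2 (x axis) and within pool 3 (y axis) for each of the 34 genes (purple circles, Toll-like receptors; grey triangles, others). Points in the upper left and lower right, 23 of 34, are genes with opposite directions in the pools. Traf6 and Nod1 lie far to the right with pool 3 values of -0.01 and -0.31.

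More members separated by pool than by condition. The libraries of the 2 pools did not overlap for 22 of 34 members (64.7%), 14 higher and 8 lower in pool 3, beside 49.2% of all tested genes (24% higher, 25.2% lower). In edgeR's test of the pools with condition as a covariate, 0 of 34 members passed the threshold, beside 0.394% of all genes. Unadjusted p-values were under 0.05 for 7 members (20.6%), beside 13.9% of all genes. Of these 5 were higher in pool 3, beside 6.15% of all genes, and 2 were lower, beside 7.71%. The median log2 difference of the members was 0.08, against -0.01 for all tested genes. This sets 1 pool against 1 pool, so the p-values measure how far wells of 1 pool differ and take no account of variation among mice.

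Irak2 (chromosome 6, 113638467 to 113695026) had the smallest p of the set. It had 226 and 204 CPM in the control and agonist wells of pool 2 and 93.3 and 95.8 CPM in those of pool 3, and both libraries of pool 3 were low. The log2 difference of pool 3 from pool 2 was -1.19 (SE 0.24, 95% interval -1.72 to -0.65), with an edgeR adjusted p of 0.0741. DESeq2 (adjusted p = 0.000889, 3.86% of all genes called), limma-voom (adjusted p = 0.0321, 1.5% called) and edgeR without a filter (adjusted p = 0.0120, 2.1% called) placed it past the threshold. The other gene with a lower value in pool 3 and an edgeR unadjusted p under 0.05 was Tlr5. It had 6.06 and 5.04 CPM in pool 2 and 3.45 and 2.47 CPM in pool 3 (-0.92, SE 0.41, edgeR adjusted p = 0.36).

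Tlr11 (chromosome 14, 50357914 to 50363663) had the largest difference in the other direction. It was read at 4.69 and 6.25 CPM in the control and agonist wells of pool 2 and at 12.9 and 15.6 CPM in those of pool 3. The log2 difference was 1.39 (SE 0.34, 95% interval 0.63 to 2.15, edgeR adjusted p = 0.112), with an adjusted p of 0.0205 in DESeq2 and of 0.0417 in edgeR without a filter. A further 4 genes had higher values in pool 3 with unadjusted p-values below 0.05. They were Tlr2 with 14.0 and 12 CPM in pool 2 and 23.6 and 26.3 CPM in pool 3 (0.94, SE 0.30, adjusted p = 0.207), Tlr13 with 87.1 and 76.1 against 124 and 144 CPM (0.71, SE 0.25, adjusted p = 0.24), Tmem173 with 108 and 75.0 against 150 and 150 CPM (0.74, SE 0.25, adjusted p = 0.232), and Cd14 with 10.6 and 8.67 against 15.6 and 16.2 CPM (0.73, SE 0.32, adjusted p = 0.357). Tlr4 (0.63, SE 0.37), Tlr8 (1.16, SE 0.65) and Nod2 (0.76, SE 0.42) also had separate pools with pool 3 above, at wider errors. Ticam1 (-0.65, SE 0.29), Map3k7 (-0.67, SE 0.32) and Ripk2 (-0.71, SE 0.39) had separate pools with pool 3 below. Of all members, 14 had separate pools with pool 3 above and 8 with pool 3 below.

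Tlr7, Tlr8, Tlr13 and Irak1 are the 4 members on the X chromosome, where Tlr7 and Tlr8 are neighbours at 167304929 to 167330558 and 167242696 to 167264329. Their values of pool 3 against pool 2 did not share a direction. Tlr7 gave -0.47 (SE 0.32) and Irak1 -0.27 (SE 0.27), while Tlr8 and Tlr13 gave the positive values above.

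Other members had values near 0 between the pools, among them the 2 most abundant. Irf5 gave -0.04 (SE 0.23, 95% interval -0.57 to 0.49), Unc93b1 -0.05 (SE 0.24, -0.58 to 0.49), Tlr1 -0.05 (SE 0.24, -0.58 to 0.49) and Tlr6 -0.04 (SE 0.32, -0.76 to 0.67). Traf6 gave 0.26 (SE 0.33) with all 4 libraries, and its value depended on which pool 2 well was read. It was 0.95 without agonist replicate 2 and -0.40 without control replicate 2. Those fits were without the condition, and in them the lone pool 2 library is assumed to vary like the others. Without agonist replicate 2, 4 members passed (Tlr11, Ticam1, Irak2 and Traf6), beside 7.98% of all genes, and without control replicate 2 it was 2 (Irak2 and Tmem173), beside 4.25%. Without either library of pool 3, 0 passed.

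Cell type markers were read in the same fit, in which 49.6% of all tested genes had higher and 50.4% lower values in pool 3. Of the cDC1 markers 7 of 8 had higher values in pool 3. Their summed level was 325 to 703 CPM in pool 2 and 547 to 586 CPM in pool 3, overlapping. Irf8 alone had 126 and 505 CPM in the control and agonist wells of pool 2 and 280 and 264 CPM in those of pool 3. Values were lower in pool 3 for 10 of 13 monocyte and macrophage markers (5196 to 5800 and 3229 to 3537 CPM) and 9 of 10 B cell markers (743 to 823 and 375 to 451 CPM). They were also lower for 9 of 10 T cell markers (580 to 820 and 341 to 502 CPM) and 5 of 7 plasmacytoid dendritic cell markers (776 to 942 and 530 to 710 CPM). None of these markers was at 0 in a library. Their part in the values of Irak2, Tlr11 and the other members was not tested. Of the 37 other pathway genes tested, 0 passed between the pools. Those with the smallest p were 5430427O19Rik, named Tasl in later annotations, an adaptor of endosomal receptors (-0.91, SE 0.26), Cd36, a scavenger receptor (0.72, SE 0.24), the nucleic acid sensors Zbp1 (-0.87, SE 0.32) and Ddx58 (-0.88, SE 0.34), and Cd180, which encodes RP105 (-0.64, SE 0.28).

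**Figure D4:**
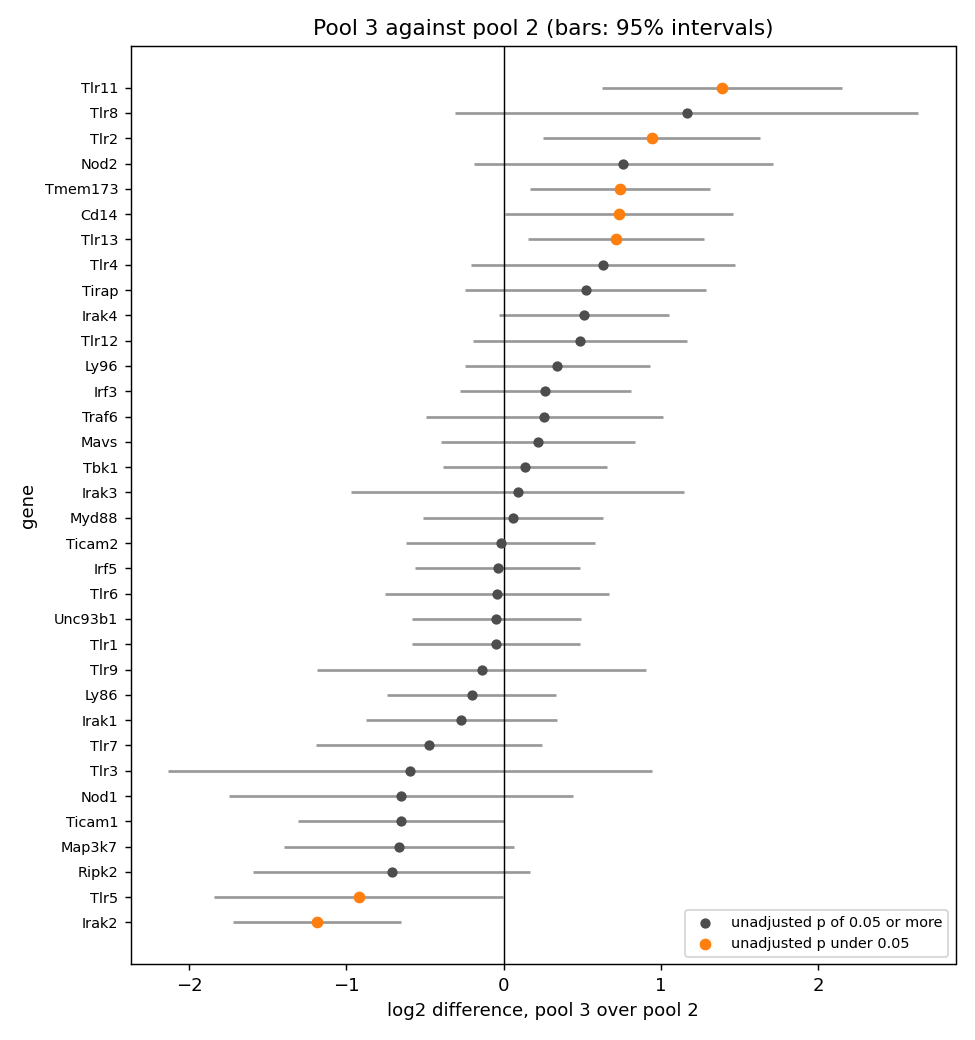
Log2 difference of pool 3 from pool 2 for each of the 34 genes (points) with its 95% interval (bars), from edgeR's fit with condition as a covariate. The 7 genes in orange, from Irak2 at -1.19 to Tlr11 at 1.39, had an unadjusted p under 0.05, and none passed the adjusted threshold.

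The promoters of Tlr11 and Irak2 are shown because these genes had the largest differences between the pools, a choice made after their values were seen. The 250 bases before the RefSeq start site (GRCm38.p6) are chr14:50357664-50357913 for Tlr11 and chr6:113638217-113638466 for Irak2, both on the plus strand. Capitals mark matches to the 4 motifs searched on both strands, which were the PU.1 core GAGGAA, an NF-kB form of GGG and CC with any 5 bases between them, an interferon-stimulated response element of GAAA and GAAA with any 2 bases between them, and the cyclic AMP response element TGACGTCA. These could overlap each other.
Tlr11: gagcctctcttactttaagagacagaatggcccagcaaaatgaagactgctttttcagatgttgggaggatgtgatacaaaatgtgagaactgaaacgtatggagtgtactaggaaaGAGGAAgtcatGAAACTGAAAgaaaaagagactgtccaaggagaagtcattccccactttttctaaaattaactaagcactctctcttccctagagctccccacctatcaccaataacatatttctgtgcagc
Irak2: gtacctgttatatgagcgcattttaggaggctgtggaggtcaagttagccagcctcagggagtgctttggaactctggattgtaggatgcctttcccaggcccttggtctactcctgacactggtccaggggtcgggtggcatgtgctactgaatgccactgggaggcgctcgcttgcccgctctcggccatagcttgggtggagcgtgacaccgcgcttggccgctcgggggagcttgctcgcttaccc
Tlr11 held 1 PU.1 core and 1 interferon-stimulated response element, and Irak2 held none of the 4. Promoters were found for 26 of the 34 members. The response element stood in 2 of the 26, Tlr11 and Myd88, and in 2.98% of all 32851 promoters of the same length. The RefSeq start used for Myd88 lay 1393 bases from the start of the GENCODE gene. The PU.1 core stood in 8 of 26 and in 23.3% of all promoters, the NF-kB form in 16 of 26 and in 45.8%, and the cyclic AMP element in 0 of 26 and in 1.55%. Such matches describe letters in these windows and no binding was measured.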

How the data were processed

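The 4 deposited tables, 1 per library, give the number of reads per gene as raw counts from the authors. The submitters' processing notes name STAR 2.7, HTSeq 0.11.1 and GRCm38 (mm10), and the strand setting is not given in the sources used here. Rows that name no gene were not used, and of all reads those outside genes were 16.0% to 20.0%, ambiguous reads 5.77% to 6.50% and multiply aligned reads 6.54% to 6.98%. All 55450 genes matched GENCODE M21 by identifier and symbol. TPM used the union of a gene's exons.

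Counts were tested with edgeR 4.0.16, with limma 3.58.1 and DESeq2 1.42.0 as alternatives, in R 4.3.3. The default filter (minimum count 10) left 18297 genes. The model had the condition only, with trimmed mean of M-values factors of 0.947 to 1.05 and Benjamini-Hochberg adjustment over these genes at a threshold of 0.05. The pool comparison had condition as a covariate. Standard errors were derived from the fold change and the F statistic. Log2 CPM within pools had a prior count of 2. The fits were tested on simulated data.

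Wells with the same number came from the same pool, per the labels' protocols, and their residuals from the group mean correlated with r = 0.288 over 18297 genes, which are not independent replicates. The members and lists were chosen with earlier results of these data known. Described in full are the 8 members with the smallest unadjusted p in the agonist comparison, members called in any fit, and, of other pathway genes, the 5 with the smallest p in each comparison. Further members are described by role, and those singled out for a level, a within-pool difference or a pool difference not called were chosen after their values were seen.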

Additional observations from a re-analysis of the deposited data

How the results depend on the processing

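No member was called in the agonist comparison under any of the 12 alternatives run. The count over all genes was 0 as reported, 1 with the replicate block, 7 in DESeq2, 6 in DESeq2 with the block, 9 with no filter and 0 to 2 when each library was left out. The block changed no member's call. The median of the members ranged from -0.10 to 0.15 when libraries were left out. Signs changed for 9 to 14 members in those fits and for 0 to 4, all with values under 0.04 in size, in the other 8. Among the 8 members with the smallest p, the values that turned when a library was left out were those of Nod1 (-0.16 to 1.33), Tlr5 (-0.91 to 0.12) and Ticam1 (-0.58 to 0.35); the cause was not tested beyond the fewer samples. For the pools, the count over all genes was 72 and moved to 706 in DESeq2, 275 in limma-voom, 600 with no filter, 8 with a stricter filter, 5 with total counts only, 5 without the group term, and 1 to 1575 when libraries were left out. Members called went from 0 to 2 in DESeq2 and with no filter, 1 in limma-voom, and 0 to 4 when libraries were left out, where Traf6 ranged from -0.40 to 0.95. Leaving out a library of the pool comparison was run without the group term, since no degree of freedom is left with it. Within pools, prior counts of 0.5 and 5 also gave 5 members higher and 6 lower in both pools, and total counts gave 6 and 9. The number at 10 TPM or more was 23, and 21 with the longest transcript. Low read counts limit Tlr3 and Tlr8 most.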
